A study of Rattus norvegicus with 4 samples.

Results

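Mitochondrial beta-oxidation was followed through 7 genes: the carnitine palmitoyltransferases Cpt1a and Cpt2, the acyl-CoA dehydrogenases Acads and Acadm, the dienoyl-CoA reductase Decr1, the enoyl-CoA hydratase Echs1 and the thiolase Acaa2. They were found by their symbols in the probe annotation. Each was spotted as 1 cDNA clone in 2 copies, which gave 14 of the 7688 spots and 7 of the 4704 clones that were tested, and every one of the 14 spots carried a measured ratio on all 4 arrays. The RNA came from whole livers of female Fischer rats. Each of 4 two-colour arrays set total RNA of 1 rat dosed with ciprofibrate, at 50 mg per kg of body weight per day for 60 days, against total RNA pooled from 5 control rats. No age or vehicle is stated in the labels. They assign each array to one of 4 treated rats without numbering the rats, so each array was counted as a separate rat, and the replicate numbers only name the arrays. The p-values measure the spread between these arrays, which would be partly technical if 2 arrays shared a rat.

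Mitochondrial beta-oxidation shortens a fatty acid by repeated removal of acetyl-CoA. Long-chain acyl groups enter the matrix by way of carnitine: Cpt1a, in the outer membrane, makes the acylcarnitine and is the regulated step of the pathway in liver, and Cpt2, in the inner membrane, turns it back into acyl-CoA. A dehydrogenase then introduces a double bond, a hydratase adds water to it, a second dehydrogenase oxidises the product, and a thiolase releases acetyl-CoA. Ciprofibrate is a fibrate, an agonist of the nuclear receptor PPARα, and genes of both mitochondrial and peroxisomal fatty acid oxidation are textbook targets of that receptor in rodent liver.

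To show the stretches of the genome that precede these genes, promoter sequences were taken from RefSeq on the GRCr8 rat assembly, which listed 5 of the 7 (Acads, Acadm, Echs1, Cpt1a and Cpt2). The 250 bases before the annotated start are given 5′ to 3′ on the gene's strand for 3 of them: Acads and Echs1, whose ratios passed the test with opposite signs, and Cpt1a, the entry step. Capitals mark AGGTCA, the half-site that PPARα and other nuclear receptors recognise, and GGGCGG, the GC box, on either strand.
Acads, chr12:47154083-47154332, plus strand: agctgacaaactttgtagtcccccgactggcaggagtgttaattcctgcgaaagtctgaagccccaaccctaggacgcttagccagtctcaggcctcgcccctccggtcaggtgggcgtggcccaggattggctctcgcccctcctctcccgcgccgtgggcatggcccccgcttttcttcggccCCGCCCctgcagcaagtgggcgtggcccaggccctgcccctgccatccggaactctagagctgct
Echs1, chr1:204333507-204333756, minus strand: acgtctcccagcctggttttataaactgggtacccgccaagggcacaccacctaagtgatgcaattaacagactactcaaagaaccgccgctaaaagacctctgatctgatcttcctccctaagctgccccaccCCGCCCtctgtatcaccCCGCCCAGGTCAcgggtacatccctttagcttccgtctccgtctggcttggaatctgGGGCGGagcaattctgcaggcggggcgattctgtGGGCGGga
Cpt1a, chr1:209995910-209996159, plus strand: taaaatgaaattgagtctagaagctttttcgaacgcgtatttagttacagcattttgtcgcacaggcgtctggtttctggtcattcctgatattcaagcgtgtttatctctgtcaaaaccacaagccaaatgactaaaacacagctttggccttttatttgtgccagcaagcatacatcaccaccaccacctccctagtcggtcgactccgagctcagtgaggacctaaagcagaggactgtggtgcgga
The window of Echs1 held 1 AGGTCA, on the gene's strand from 93 bases before the start, directly beside a GC box, and 4 GC boxes in all, none overlapping it. Cpt2 held 3 GC boxes and Acads 1, and no AGGTCA was found in the windows of Acads, Acadm, Cpt1a or Cpt2. Among 33469 windows of the same length, 14.1% held AGGTCA and 30.5% held GGGCGG. The repeat AGGTCANAGGTCA, searched on both strands, was in none of the 5 windows and in 17 (0.0508%) of all of them. These matches describe letters in a short window and no measurement on the arrays bears on binding there.

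The values are log2 ratios of the 2 channels, centred on the median of each array, so that 0 is the middle of all clones on that array. Per the labels, channel 1 held the RNA of the treated rat and channel 2 that of the pool, but no dyes are named and which way the ratio runs is unsettled. A panel of 31 textbook targets of peroxisome proliferators, with the 7 genes left out, had 11 measured genes, of which 7 had a positive and 4 a negative mean. The split was 6 to 5 without centring or with a smooth surface over the slide or the surrounding spots removed. It was 8 to 3 with block medians removed. Without replicates 1, 2, 3 and 4 it was 6 to 5, 8 to 3, 6 to 5 and 7 to 4. The panel also holds 3 clones outside this count, whose annotation lists more than 1 entry. They belong to the Cyp4a family of fatty acid hydroxylases (2 clones) and to the acyl-CoA thioesterases, and were positive on all 4 arrays, with means of 0.89, 0.31 and 0.89. The first and the last passed the test (limma adjusted p = 0.00669 and 0.0107) and the other did not (adjusted p = 0.0520). Of the 11 panel genes, 3 passed the test with a positive mean and 1, Acot2, with a negative mean. Over all tested clones these shares were 13.6% and 15%. The median of the 11 panel genes was 0.03, against -0.01 for all clones, so their split alone does not settle the direction. On the channel order and the 3 clones outside the count, a positive ratio likely stands for more RNA in the treated rats. Those 3 clones are given here as centred ratios only, with position not removed. Signs rather than directions of expression are given below. Differences between genes within an array have the same size either way.

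Arrays 1, 3 and 4 resembled each other more than they resembled replicate 2: Pearson correlations over clones lay between 0.67 and 0.76 among them and between 0.47 and 0.52 with replicate 2. All correlations were positive. Place on the slide also went with the ratio. In a layout of 8 printing blocks read from the values, 25.4% of clones in odd-numbered blocks and 1.38% in even-numbered blocks were called positive, and 8.17% and 22.1% were called negative. Of the 7 genes, Acaa2 and Acads lay in odd-numbered blocks and the other 5 in even-numbered ones. Intensities are not in the table, so liver markers could be checked as ratios and not as levels. Of 10 hepatocyte markers 6 were tested, on 7 clones, and all 7 clones had negative means, from -0.69 for Tf, the plasma iron carrier, to -0.22 for Apoa1, the main protein of high-density lipoprotein. Tf and Fgb, a fibrinogen chain, passed the test. Averaged over the 7 clones, they stood at -0.10, -1.19, -0.38 and -0.30 on replicates 1 to 4. In bulk RNA, fewer cells of a type and less RNA per cell cannot be told apart.

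The 7 genes did not move as one. Acaa2 and Acads had positive ratios and Echs1 a negative ratio past the test, while Decr1, Acadm, Cpt1a and Cpt2 did not pass. That is 3 of 7, where 28.6% of all tested clones were called (limma, Benjamini-Hochberg adjusted p under 0.05). In the positive direction 2 of 7 were called against 13.6% of clones, and in the negative direction 1 of 7 against 15%. Of the 7, 5 kept one sign on all 4 arrays, as did 52.8% of all clones. The median of the 7 means was 0.28, against -0.01 for all clones. The number called moved with the arrays used: it was 3, 5, 2 and 1 without replicates 1, 2, 3 and 4, where 14.7%, 37.9%, 8.97% and 10.9% of all clones were called. It was 5 with arrays weighted by their quality (50.1% of clones) and 5 with the missing-value code kept as a ratio (25.6%). It was 0 with an unmoderated statistic (0.213%) and 0 when a change of 2-fold was asked for as well (2.89%). Each mean rests on 4 arrays, and because the ratio was tested against 0, the spread between control rats is left out.

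**Figure D1:**
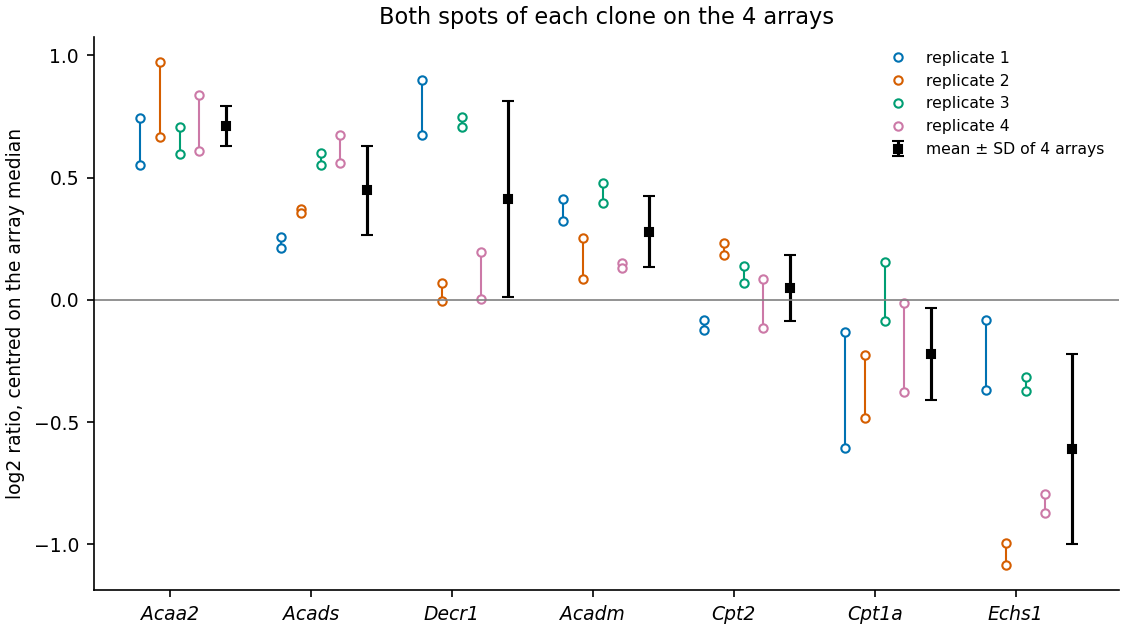
Centred log2 ratio (vertical axis) of both spots of each clone, joined by a line, on replicates 1 to 4, with the mean and SD of the 4 arrays as black squares and bars. Acaa2 lies above 0.55 at every spot, both spots of Decr1 are high on replicates 1 and 3 and near 0 on replicates 2 and 4, and all spots of Echs1 are below 0.

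Of the carnitine palmitoyltransferases, Cpt1a was at -0.37, -0.35, 0.03 and -0.20 on replicates 1 to 4. Replicate 3 alone was not negative. The mean was -0.22 ± 0.19 (SD, n = 4), with a 95% interval from -0.47 to 0.03, and did not pass (limma adjusted p = 0.156). The 2 spots of this clone stood apart by 0.47, 0.26, 0.25 and 0.36, the widest gap among the 7 genes on every array but replicate 2, where Acaa2 had 0.31. In comparison, the median gap over all clones printed in 2 copies was between 0.08 and 0.09 on the 4 arrays. For Cpt1a the same spot was the lower one each time.

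Cpt2, which completes the transfer into the matrix, was at -0.10, 0.21, 0.10 and -0.02. The arrays fell on both sides of 0. The mean of 0.05 ± 0.14 (SD, n = 4) did not pass (limma adjusted p = 0.740), and its 95% interval ran from -0.18 to 0.28. Without replicate 2 the mean was -0.0049.

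The acyl-CoA dehydrogenases divide the chain lengths between them, Acads acting on short and Acadm on medium chains. Acads was at 0.23, 0.36, 0.58 and 0.62 on replicates 1 to 4. All 8 spot values were positive, and the mean of 0.45 ± 0.18 (SD, n = 4) passed the test (limma adjusted p = 0.0218), a linear ratio of 1.36. Leaving out replicate 3 brought it to 0.40 (adjusted p = 0.112) and leaving out replicate 4 to 0.39 (adjusted p = 0.0948), which ended the call.

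Acadm was at 0.37, 0.17, 0.44 and 0.14, also positive at all 8 spot values, with replicates 1 and 3 above replicates 2 and 4. Its mean of 0.28 ± 0.15 (SD, n = 4) did not pass (limma adjusted p = 0.0734), and it did without replicate 2 (0.32, adjusted p = 0.0403).

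Decr1 reduces the conjugated double bonds left when polyunsaturated fatty acids are degraded. It was at 0.79, 0.03, 0.73 and 0.10, so that replicates 1 and 3 were high and replicates 2 and 4 near 0. The spots repeated this: they differed by at most 0.22 on any array, while the arrays spanned from 0.03 to 0.79. The mean was 0.41 ± 0.40 (SD, n = 4, limma adjusted p = 0.0791), and its SD exceeded that of 83.9% of tested clones. Without replicate 2 it was 0.54 and passed (adjusted p = 0.0315).

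Echs1, which hydrates the double bond made by the dehydrogenases, was at -0.23, -1.04, -0.34 and -0.83. It was negative at all 8 spot values, and replicates 2 and 4 were well below replicates 1 and 3. The mean of -0.61 ± 0.39 (SD, n = 4) passed (limma adjusted p = 0.0243), a linear ratio of 0.655, and 7.80% of tested clones lay lower. The call ended without replicate 4 (-0.54, adjusted p = 0.0879). The hepatocyte markers were also lowest on replicate 2, and their part in this ratio was not tested.

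Acaa2, the thiolase that releases acetyl-CoA, was at 0.65, 0.82, 0.65 and 0.72. No array stood apart, and the lowest of its 8 spot values was 0.55. The mean of 0.71 ± 0.08 (SD, n = 4, limma adjusted p = 0.00439) corresponds to a linear ratio of 1.64. Only 0.425% of tested clones had a higher mean, and 5.0% a smaller SD. The call held without each array in turn, at means from 0.67 to 0.73.

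**Figure D2:**
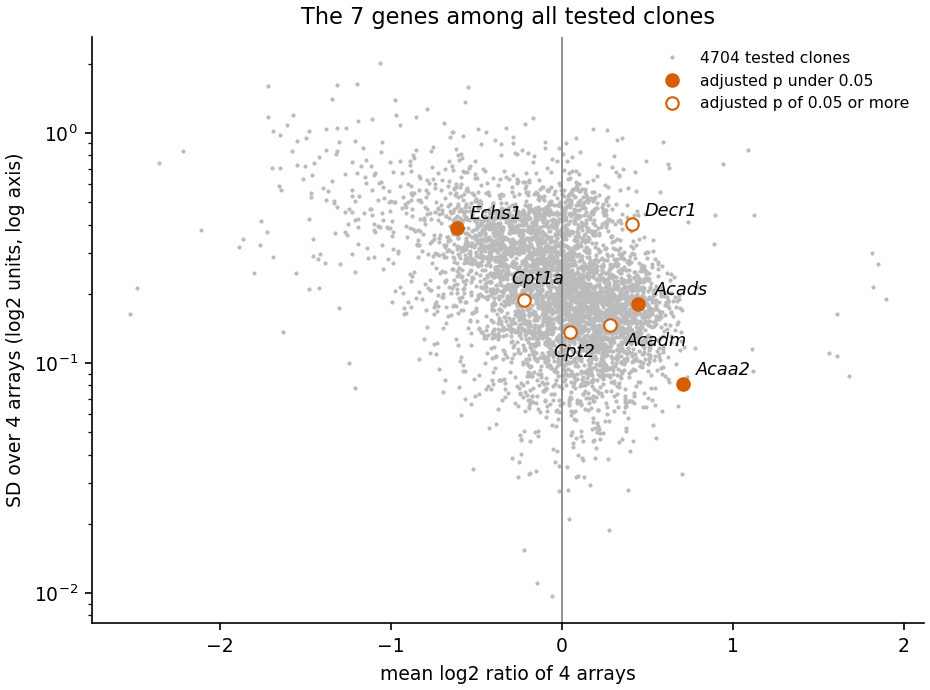
Mean log2 ratio of 4 arrays (horizontal axis) and SD over the arrays on a log axis (vertical axis) for the 4704 tested clones in grey and the 7 genes in orange, filled where the adjusted p is under 0.05. Acaa2 combines a mean of 0.71 with an SD of 0.08, while Decr1 and Echs1 have SDs of 0.40 and 0.39.

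Because the ratio depended on the place of a spot, each clone was set beside the median of the up to 24 spots around it. For Acads the surroundings stood at 0.27, 0.21, 0.53 and 0.55 on replicates 1 to 4, higher on replicates 3 and 4 as the clone itself was. With that median subtracted Acads was at 0.06 ± 0.09 (SD, n = 4, limma adjusted p = 0.530), and with a smooth position surface subtracted at 0.08 ± 0.09 (adjusted p = 0.416). The surroundings of Acaa2 were also positive, at 0.19, 0.49, 0.28 and 0.41, but all 8 of its spot values exceeded them. It was still called after that subtraction, at 0.37 ± 0.06 (adjusted p = 0.0274), and with the surface removed, at 0.43 ± 0.08 (adjusted p = 0.0173).

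The 2 negative genes differed from their surroundings on every array. Around Echs1 the medians were -0.01, -0.09, -0.12 and -0.08, and the clone stayed at -0.53 ± 0.37 (SD, n = 4, limma adjusted p = 0.0616) after their subtraction and at -0.52 ± 0.40 (adjusted p = 0.0639) without the surface. Its size was largely kept and its call was not. Around Cpt1a the spots were positive, at 0.13, 0.35, 0.40 and 0.15, and all 8 spot values of the clone lay below them. Relative to these surroundings Cpt1a was at -0.47 ± 0.16 (adjusted p = 0.0256), and without the surface at -0.35 ± 0.09 (adjusted p = 0.0315), negative on all 4 arrays and past the test both times. Both means average the 2 spots of the clone, which stood apart by 0.25 to 0.47. The SDs leave that gap out, and the spots were not tested singly with position removed.

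Decr1, Acadm and Cpt2 passed neither with the surroundings nor with the surface removed. Decr1 went to 0.15 ± 0.44 and 0.28 ± 0.38 (SD, n = 4), and its replicates 2 and 4 turned negative. Acadm was at 0.12 ± 0.12 and 0.17 ± 0.12, positive on all 4 arrays each time, and Cpt2 at 0.14 ± 0.30 and 0.09 ± 0.18. With only the median of each block subtracted, Acaa2 (0.59 ± 0.12, limma adjusted p = 0.0104) and Acadm (0.31 ± 0.09, adjusted p = 0.0371) were the called genes, and Acads (0.24 ± 0.11, adjusted p = 0.0782) and Echs1 (-0.43 ± 0.41, adjusted p = 0.0941) were not. Thus 2 of the 7 were called under each of these 3 treatments of position, where 14.5%, 14.1% and 21.3% of all clones were called.

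**Figure D3:**
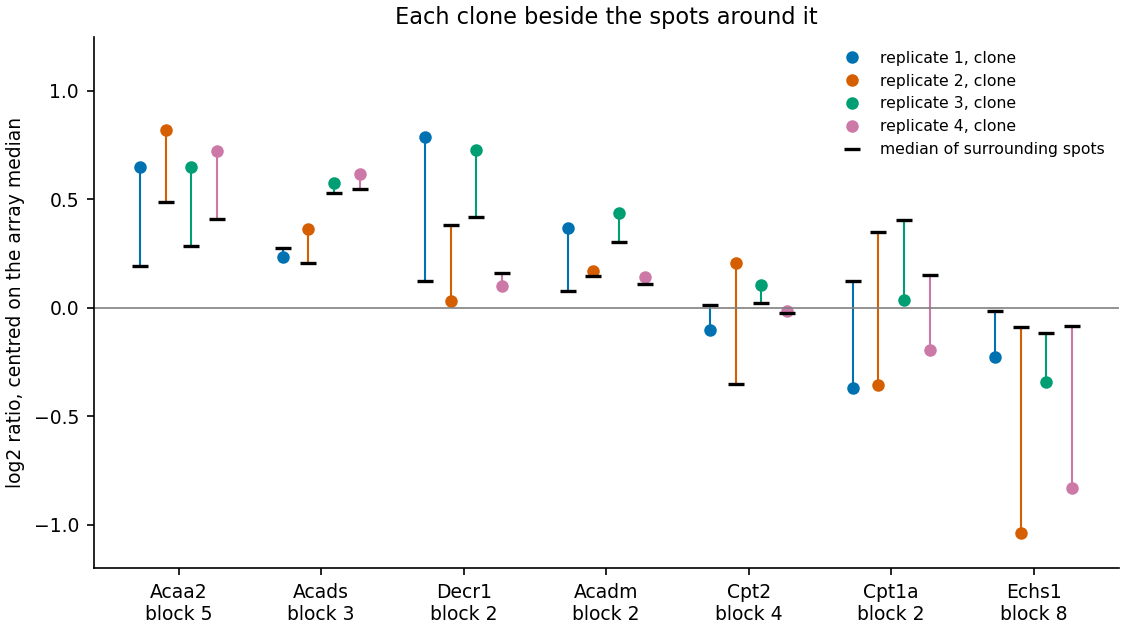
Centred log2 ratio (vertical axis) of each clone on replicates 1 to 4 (coloured points) and the median of the spots surrounding it (black bars), with the printing block of the clone. Acads sits on or near its bars, Cpt1a lies below positive surroundings on every array, and Acaa2 lies above them.

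**Figure D4:**
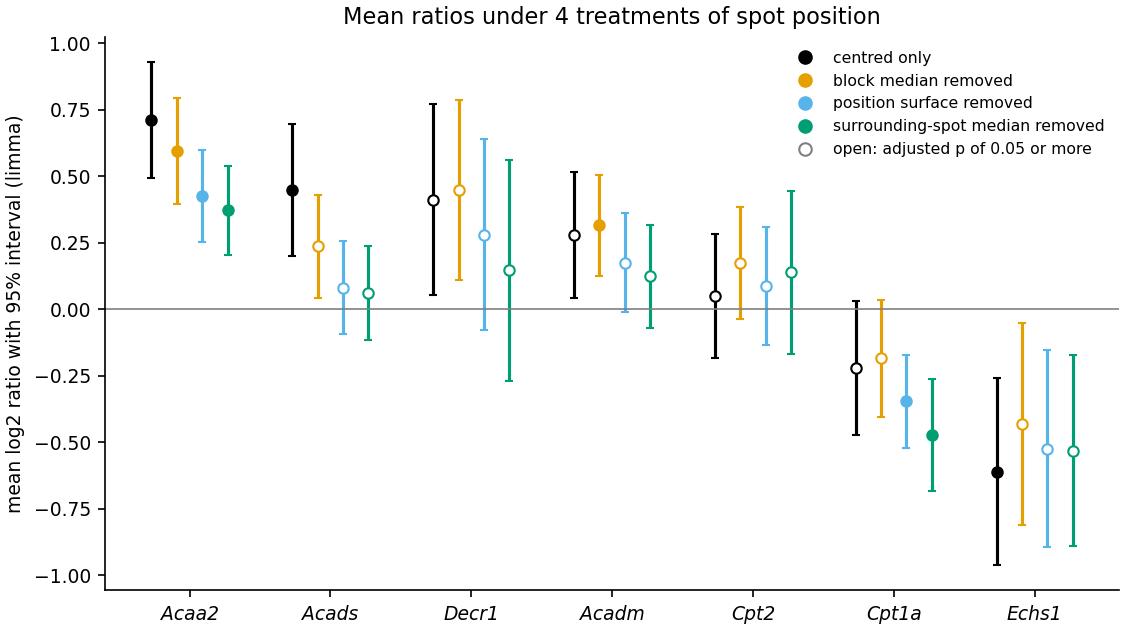
Mean log2 ratio with its 95% interval from limma (vertical axis) for the 7 genes, with arrays centred only and under 3 ways of removing spot position; filled points have an adjusted p under 0.05. Acaa2 is filled under all 4, Acads only when arrays were centred only, and Cpt1a only with the surface or the surroundings removed.

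Differences between 2 genes on the same array do not depend on the centring. In order of their means the genes were Acaa2, Acads, Decr1, Acadm, Cpt2, Cpt1a and Echs1. Of 21 pairs, 14 had one sign on all 4 arrays. No share over all pairs of tested clones was taken, so this count has no background. With 4 arrays an exact two-sided sign-flip test cannot give a p below 0.125 (0.188 after Benjamini-Hochberg adjustment over the 21 pairs), so no pair could pass. Among the 6 neighbouring pairs, Acaa2 exceeded Acads by 0.26 ± 0.20 (SD, n = 4) and Cpt2 exceeded Cpt1a by 0.27 ± 0.21, each on 4 of 4 arrays. The neighbours Acads and Decr1 (0.04 ± 0.48), Decr1 and Acadm (0.13 ± 0.26), Acadm and Cpt2 (0.23 ± 0.22) and Cpt1a and Echs1 (0.39 ± 0.38) did not keep one order on every array. With the position surface removed, 13 of the 21 pairs had one sign. Acads minus Cpt2 went from 0.40 ± 0.20, positive on 4 of 4 arrays, to -0.0068 ± 0.098, positive on 1 of 4. Acads no longer exceeded Acadm either (difference -0.09 ± 0.18, against 0.17 ± 0.25 before).

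Decr1, Acadm and Cpt1a were printed in the same block, with the spots of Decr1 and Cpt1a 2 rows apart in one column, so they share much of any position effect. Acadm exceeded Cpt1a there by 0.50 ± 0.18 (SD, n = 4) and Decr1 exceeded it by 0.63 ± 0.39, both on 4 of 4 arrays. With the surface removed the differences were 0.52 ± 0.16 and 0.63 ± 0.39. The matrix enzymes of this block thus had higher ratios than the entry step beside them on every array, although the pair could not pass an exact test. Across the whole pathway Acaa2 exceeded Echs1, the hydratase that acts before it in the cycle, by 1.32 ± 0.47, again on 4 of 4 arrays. Acaa2 lay in an odd-numbered and Echs1 in an even-numbered block, and the difference was 0.95 ± 0.42 with the surface removed. Decr1 and Echs1 each varied by about 0.4 (SD) between arrays, yet their difference had the smallest SD of the 21 pairs, 1.02 ± 0.07. With the surface removed it was 0.80 ± 0.17. This pair was singled out after its values had been seen.

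For each gene the clones with 1 symbol nearest to it over the 4 arrays were listed, by Euclidean distance of the log2 ratios. Nearest to Acaa2 were Crot, the peroxisomal carnitine octanoyltransferase, at a distance of 0.19, and Ldha, a lactate dehydrogenase subunit, at 0.20. Both lay in odd-numbered blocks, as Acaa2 does. Nearest to Acads were Spink1l (0.03) and Gfm1, a mitochondrial elongation factor (0.06), also in odd-numbered blocks. Echs1 had Parvb (0.08) and Akr1c14, a hydroxysteroid dehydrogenase (0.19), and Acadm had Rpl17-ps16 (0.08) and Gabarapl1 (0.14). Cpt1a had Cdc23 (0.13) and Rhpn2 (0.16), and Cpt2 had Ppif, the mitochondrial cyclophilin (0.05), and Dst (0.09). Decr1 had no close match: Pomc was at 0.37 and Hspa1l at 0.44. Echs1, Acadm, Cpt1a, Cpt2 and Decr1 lay in even-numbered blocks, and their nearest clones lay on both sides. Parvb, Gabarapl1, Cdc23, Rhpn2, Ppif and Hspa1l were in odd-numbered blocks, and Akr1c14, Rpl17-ps16, Dst and Pomc in even-numbered ones.

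The other genes of the pathway also went both ways. Across 69 listed genes of fatty acid oxidation and its neighbours, 21 were measured on 22 clones, of which 5 were called positive and 2 negative, against 28.6% of all clones called in either direction. Their median was 0.11. With the surface removed, 2 of these clones were called positive and 3 negative, where 14.1% of all clones were called. With block medians removed the counts were 7 and 1, where 21.3% of all clones were called. With arrays centred only, 8 other mitochondrial beta-oxidation enzymes were measured on 9 clones. Of these clones 2 were positive, 1 negative and 6 not called (median 0.24). Ech1, a dienoyl-CoA isomerase, was at 0.67 ± 0.10 (SD, n = 4, limma adjusted p = 0.00533). It kept its call narrowly without the surface, at 0.31 ± 0.12 (adjusted p = 0.0488). Eci1, the isomerase that moves double bonds of unsaturated chains into place, was at 0.72, 0.38, 0.35 and 0.11, a mean of 0.39 ± 0.25 (adjusted p = 0.0449). Its call ended without replicate 1 (0.28, adjusted p = 0.156), 3 (0.41, adjusted p = 0.132) or 4 (0.49, adjusted p = 0.0606), and without the surface (0.44 ± 0.29, adjusted p = 0.0568).

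Hsd17b10, a mitochondrial dehydrogenase of short-chain hydroxyacyl-CoA, was the negative one, at -0.81, -0.52, -0.38 and -0.81. Its mean of -0.63 ± 0.22 (SD, n = 4, limma adjusted p = 0.00988) kept its call without the surface (-0.71 ± 0.17) and without each array in turn. The 2 subunits of the trifunctional protein, which does the later steps on long chains, were not called, with Hadha at 0.24 ± 0.29 and Hadhb at 0.01 ± 0.10. Without replicate 2, Hadha was at 0.37 (adjusted p = 0.0235). Both were singled out after their values had been seen.

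In the carnitine shuttle, the plasma membrane carnitine transporter Slc22a5 was positive at 0.33, 0.81, 0.54 and 0.49 (mean 0.54 ± 0.20, SD, n = 4, limma adjusted p = 0.0137). Its call ended without replicate 3 (adjusted p = 0.0623) and without the surface (0.26 ± 0.17, adjusted p = 0.0872). The other measured gene of that list, Cpt1b, was not called. Etfa, a subunit of the flavoprotein that takes electrons from the acyl-CoA dehydrogenases, was at 0.68, -0.17, 0.82 and 0.61, with replicate 2 alone negative, and a mean of 0.49 ± 0.44 that did not pass (adjusted p = 0.0600). Without replicate 2 it was 0.71 (adjusted p = 0.00475), and without the surface 0.12 ± 0.26.

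None of the 3 clones of ketone body synthesis and use was called (limma; 2 of the 3 had an unadjusted p under 0.05). The more extreme clone of Acat1, a thiolase, was at 0.28 ± 0.10 (SD, n = 4, adjusted p = 0.0628), its other clone was at -0.08 ± 0.15, and Oxct1, the enzyme of ketone body use, was at -0.58 ± 0.68. Without replicate 4, which alone stood at -1.60, Oxct1 was at -0.24 (adjusted p = 0.221). The first Acat1 clone was called without the surface, at 0.36 ± 0.10 (adjusted p = 0.0296), and at 0.46 with block medians removed. Of 6 peroxisomal genes 1 was positive, Crot at 0.67 ± 0.12, and 1 negative, the membrane transporter Abcd3 at -0.53 ± 0.20 (adjusted p = 0.00593 and 0.0142), with a list median of -0.33. Crot lost its call without the surface (0.28 ± 0.21, adjusted p = 0.0891). Abcd3 kept it there (-0.43 ± 0.19) and lost it with block medians (-0.35, adjusted p = 0.0624) or surrounding spots removed (-0.28, adjusted p = 0.0791), and without replicate 3 (adjusted p = 0.0554) or 4 (adjusted p = 0.0531). The only measured regulator, Rxra, the partner of PPARα on DNA, was at 0.17 ± 0.10 and not called (adjusted p = 0.211). With block medians removed it was at 0.35 and passed (adjusted p = 0.0399).

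**Figure D5:**
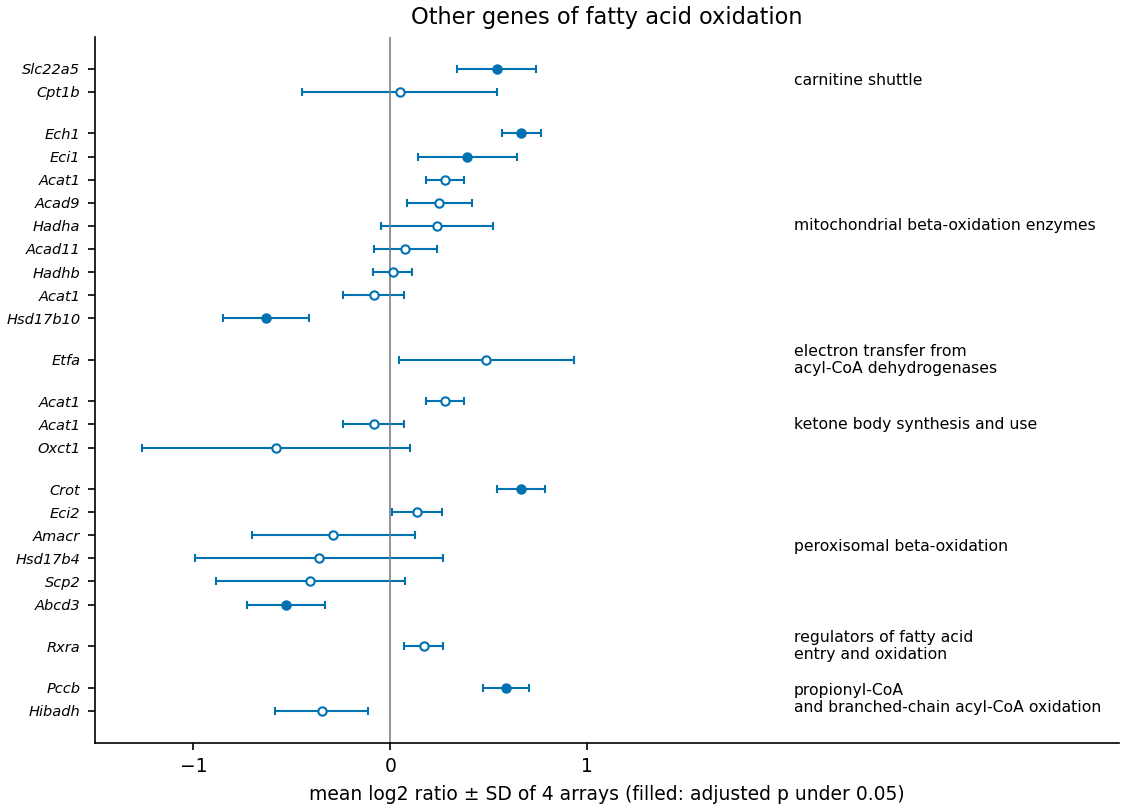
Mean log2 ratio with the SD of 4 arrays (horizontal axis) for each measured clone of the other pathway genes, by list, filled where the adjusted p is under 0.05; a gene in more than 1 list is drawn in each, and Acat1 has 2 clones. Positive and negative means occur in the mitochondrial and in the peroxisomal list, from -0.63 for Hsd17b10 to 0.67 for Ech1.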

How the data were processed

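Liver RNA was measured on 4 two-colour cDNA arrays. The authors deposited a log10 ratio for each spot of each array. The table names no unit, and the log10 scale was read from the values: 10 to the power of the value was a whole number of thousandths, within 0.02, for 99.99% or 100% of spots, depending on the array. How the authors scanned, corrected and normalized the spots before they deposited these log10 values is not given in the sources used here, and any dye or position bias they left remains. The most repeated value of each array (1171 to 1189 of 7688 spots) was read as a missing ratio. Values were converted to log2, spots of one clone averaged (5674 rows, unlisted spots each their own) and arrays centred on their median. The test of the mean against 0 (limma 3.58.1 under R 4.3.3, lmFit and eBayes, two-sided, threshold 0.05) took the clones measured on every array. It was also run on simulated data, drawn for each clone separately and without a position effect, and that outcome is not given here. Symbols come from an older platform annotation, updated through GRCr8; clone sequences were not checked, and related genes could cross-hybridise.

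The layout of 8 blocks of 31 by 31 spots, in 2 columns, is an inference: autocorrelation at a lag of 31 exceeded that at 30 and 32 on replicates 1, 2 and 4 but not 3 (0.303 against 0.311 at 30). The surface is a robust loess fit (span 0.05, degree 1); surroundings are a 5 by 5 square within the block. Named were all clones of the 7 genes, the 2 nearest clones of each, and of each list every called clone or otherwise the 2 with the smallest p. The genes and lists were chosen with earlier results of these data known. The closing part gives the alternatives.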

Additional observations from a re-analysis of the deposited data

Results flagged for a closer look

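Of 21 named genes, 3 had 1 array further from the other 3 than Dixon's 95% limit, measured as the gap's share of the whole range. Chance flags about 1 in 20. None is among the 7 genes. Oxct1 was lowest on replicate 4 (share 0.894), Crot lowest on replicate 1 (share 0.871), and Acsl1, an acyl-CoA synthetase of the panel, lowest on replicate 2 (share 0.861).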

How the results depend on the processing

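No paired analysis was possible because there is 1 group of arrays and the labels number no replicates. Under 18 alternatives, Acaa2 kept its call except with an unmoderated statistic (0.71, adjusted p = 0.0642) and a minimum of 2-fold. With the unmoderated statistic Acads (0.45, adjusted p = 0.0949) and Echs1 (-0.61, adjusted p = 0.148) also lost theirs, and 0 of the 7 genes were called (limma's fit without eBayes; 3 had an unadjusted p under 0.05); 10 clones were called in all, 6 positive and 4 negative. With a minimum of 2-fold 0 of the 7 were called (Acaa2 0.71, Acads 0.45, Echs1 -0.61), and 12 positive and 124 negative clones were left. Removing position changed some calls, while Acaa2 kept its own. By block median the changed ones were Acads at 0.24, Echs1 at -0.43 and Acadm at 0.31. By surface they were Acads at 0.080, Echs1 at -0.52 and Cpt1a at -0.35. By surrounding spots they were Acads at 0.062, Echs1 at -0.53 and Cpt1a at -0.47. In each the calls of Acads and Echs1 ended and the third gene gained one. Over all clones the positive calls then numbered 380, 134 and 165 against 638, and the negative calls 624, 531 and 516 against 706. With array weights Acadm (0.35) and Decr1 (0.58) were called, making 5 of 7, and 1148 positive and 1211 negative clones. With the most repeated value kept as a ratio they were also called (0.38 and 0.52, 5 of 7), with 993 positive and 462 negative clones and 8 positive pathway clones.

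Leaving out 1 array, the called number of the 7 ranged from 1 to 5; the means ranged from 0.39 to 0.52 for Acads, 0.23 to 0.33 for Acadm, -0.74 to -0.47 for Echs1, 0.29 to 0.54 for Decr1 and -0.0049 to 0.10 for Cpt2, whose sign turned without replicate 2. All clones gave 100 to 880 positive and 322 to 904 negative calls, the low numbers without replicate 3. Fewer arrays have less power. The pathway lists gave 3 to 7 positive and 1 to 2 negative calls. With the surface removed they gave 2 positive and 3 negative calls, and with block medians removed 7 positive and 1 negative. Acsl1 turned to -0.020 relative to its surroundings. The cause of these changes was not tested. The table holds no intensities, so dim spots could not be set apart.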

Other observations

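Enzymes of propionyl-CoA and branched-chain acyl-CoA oxidation were measured for 2 of 11 listed genes. Pccb, a subunit of propionyl-CoA carboxylase, was at 0.44, 0.62, 0.72 and 0.58 on replicates 1 to 4, a mean of 0.59 ± 0.12 (SD, n = 4, limma adjusted p = 0.00819), and at 0.30 ± 0.20 without the position surface (adjusted p = 0.0788). Hibadh, which oxidises an intermediate of valine breakdown, was not named by the rule and was singled out after its values had been seen. It was at -0.35 ± 0.24 (adjusted p = 0.0582) and at -0.41 ± 0.18 without the surface (adjusted p = 0.0372).

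Among the panel genes used to read the sign, Me1, the cytosolic malic enzyme, was at 0.43 ± 0.08 (SD, n = 4) and Acsl1 at 0.41 ± 0.22, while Acot2, a mitochondrial acyl-CoA thioesterase, was at -0.39 ± 0.09 (limma adjusted p = 0.0170, 0.0329 and 0.0237). Without the surface Me1 alone of these kept its call. The call of Me1 ended without replicate 1, 3 or 4 (adjusted p = 0.0522, 0.0920 and 0.0580), as did those of Acsl1 (0.107, 0.146 and 0.121) and Acot2 (0.0578, 0.132 and 0.0959). Markers of other cells were measured for 2 of 8 listed Kupffer cell genes, 2 of 6 endothelial, 6 of 7 stellate or fibroblast, 2 of 7 erythroid and 1 of 8 leukocyte genes. The stellate or fibroblast list, with Col1a2 on more than 1 clone, had 3 clones called positive and 2 negative. The endothelial list had 1 positive, and the Kupffer, erythroid and leukocyte lists 1 negative each. Of all tested clones 13.6% were called positive and 15% negative, and lists this short cannot be told from those shares.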
